A study of Mus musculus with 13 samples.

Results

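Neurofilament subunits and other axonal cytoskeleton proteins were followed as a set of 10 genes in sciatic nerve of BKS mice that carry the leptin receptor mutation db. The genes were taken by symbol from a fixed list: Nefl, Nefm, Nefh, Prph, Ina, Tubb3, Stmn2, Stmn4, Uchl1 and Gap43. All 10 were measured, each by 1 probe set, among 15437 probe sets tested. The study compared heterozygous db/+ mice (7 arrays) with homozygous db/db mice (6 arrays), all of strain BKS and 24 weeks of age, to define genes expressed differently in nerve of this model of type 2 diabetes. Mice of the db/+ group also carry 1 db allele, so neither group is free of the mutation. Total RNA of whole nerve was amplified, labelled with biotin and hybridised, 1 sample per array. The labels name each sample by a mouse sample number but do not say that samples came from separate animals, so p-values measure the spread between these samples.

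Neurofilaments are the intermediate filaments of axons and are built from light (Nefl), medium (Nefm) and heavy (Nefh) subunits, with peripherin (Prph) in peripheral neurons and alpha-internexin (Ina) as further partners. Microtubules run beside them, assembled in part from the neuronal beta-tubulin Tubb3, while stathmins such as Stmn2 and Stmn4 bind free tubulin and promote microtubule disassembly. Most of these messages are made and held in neuronal cell bodies, which for the sciatic nerve lie in the dorsal root ganglia and the spinal cord, and the nerve itself holds axons, Schwann cells, perineurium, vessels and fat.

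The arrays of the db/+ group stood apart from one another, and this bears on every result that follows. Values are log2 levels, so a difference of 1 is a factor of 2 on the linear scale. The db/+ arrays are given as 101, 103, 104 and 106, and as 105, 404 and 407. This division came from neuronal transcripts on the same arrays, Tubb3 and Uchl1 among them, so values across it are described and not tested. The mean of 17 measured sensory neuron cell body markers (of 22 listed) was 9.48 to 10.13 on the first 4 db/+ arrays, 5.83 to 5.98 on the other 3 and 5.17 to 5.86 on the db/db arrays. For 15 of these 17 markers each of the 4 arrays lay above all 9 others, as for 8.45% of all genes, in a division that neuronal transcripts defined. Isl1, a transcription factor of sensory and motor neuron nuclei, read 10.42 to 10.95 on the 4 arrays, 5.63 to 6.76 on the other 3 and 4.29 to 5.19 in db/db. The Schwann cell list, whose cells define nerve, had means of 11.06 to 11.67, 10.60 to 11.26 and 9.64 to 11.0 in the same order. Array medians lay between 8.63 and 8.71. The part of the neuronal cell body transcripts in the differences between genotypes was not tested beyond leaving these arrays out. In whole tissue, fewer axons or cells of a type and less RNA per cell cannot be told apart.

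Over all 13 arrays, 8 of the 10 genes fell in db/db nerve and none rose (limma, Benjamini-Hochberg adjusted p under 0.05). Across all genes tested, 11.7% were called lower and 13.4% higher. By unadjusted p under 0.05, 9 of the 10 were lower and 0 higher, while 5936 of all 15437 genes passed in either direction. The median log2 difference, db/db minus db/+, was -2.95 over the 10 genes and 0.02 over all genes. With db/+ 101, 103, 104 and 106 left out, the calls were 3 lower (Tubb3, Stmn4 and Uchl1) and 1 higher (Ina), against a background of 6.78% lower and 6.12% higher, and the median was -1.10 against -0.05 over all genes. The db/+ arrays kept in that fit were those with low neuronal transcripts, a choice that lowers the db/+ side. The p-values of fits without the 4 arrays do not allow for this choice. The genes thus formed 3 kinds by their calls: those lower with and without the 4 arrays, those called lower only with them in the fit (Nefl, Nefm, Nefh, Prph and Gap43), and Ina and Stmn2, which were called in neither direction over 13 arrays. For Nefl, Nefm and Nefh the count rests on those arrays together, since leaving out any single array ended none of their calls.

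**Figure D1:**
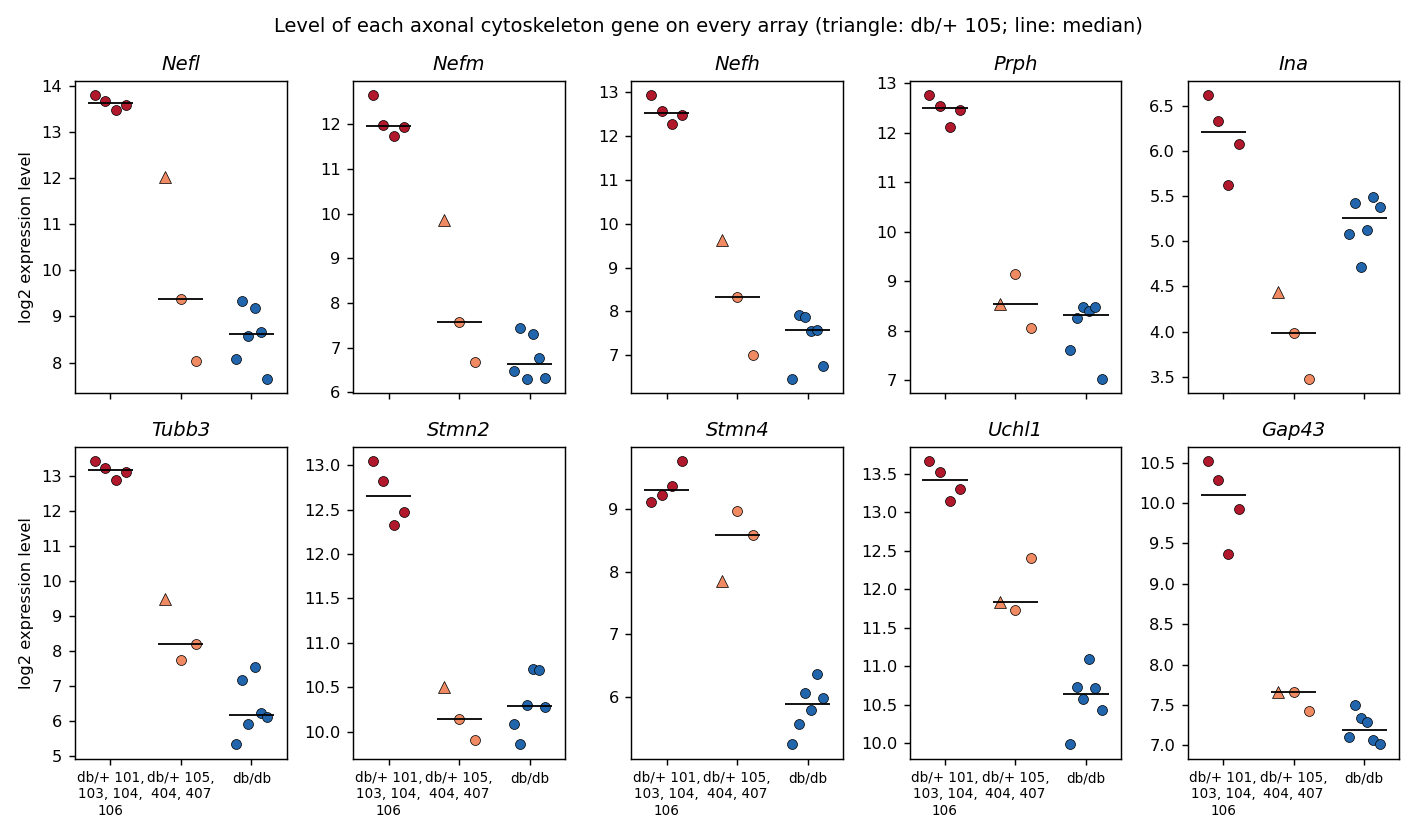
Log2 level of each of the 10 genes on each of the 13 arrays, 1 panel per gene, with db/+ 101, 103, 104 and 106, db/+ 105, 404 and 407, and db/db as 3 columns of points. The 4 arrays of the first column lie above the other 9 in all 10 panels; in the Ina panel the db/db points lie above the middle column, and in the Stmn4, Uchl1 and Tubb3 panels they lie below it.

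Promoter sequence was matched for 4 of the 10 genes in the RefSeq table of GRCm38.p6. The 150 bases before each start are shown for these genes because the other 6 had no match. The genes shown include all 3 kinds of response: Tubb3 and Uchl1 were lower with and without the 4 arrays, Prph only with them, and Ina was higher without them. Each is on the + strand, 5′ to 3′: Prph chr15:99055024-99055173, Ina chr19:47014531-47014680, Tubb3 chr8:123411403-123411552 and Uchl1 chr5:66675971-66676120. Capitals mark matches to the motifs searched on both strands.
Prph: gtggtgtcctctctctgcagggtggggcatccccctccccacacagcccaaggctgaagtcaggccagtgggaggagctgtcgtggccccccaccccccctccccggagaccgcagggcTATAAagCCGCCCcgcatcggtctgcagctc
Ina: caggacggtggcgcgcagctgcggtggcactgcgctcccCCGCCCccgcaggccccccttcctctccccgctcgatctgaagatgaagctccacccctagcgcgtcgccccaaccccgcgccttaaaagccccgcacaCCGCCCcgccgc
Tubb3: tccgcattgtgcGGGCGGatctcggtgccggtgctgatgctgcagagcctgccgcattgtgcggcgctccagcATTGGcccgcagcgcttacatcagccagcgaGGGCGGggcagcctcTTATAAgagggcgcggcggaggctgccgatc
Uchl1: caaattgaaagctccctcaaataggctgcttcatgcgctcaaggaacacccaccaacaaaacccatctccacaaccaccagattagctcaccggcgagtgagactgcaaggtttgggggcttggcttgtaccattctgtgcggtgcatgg
The motifs were TATAA (the TATA core, in 14.2% of 32851 windows of this length), GGGCGG (the GC box, 28.6%), CCAAT (24.5%) and CACGTG (an E-box, 4.3%). The Prph window held TATAA beginning 31 bases before the start and a GC box on the opposite strand at 24 bases before it. The Tubb3 window held TATAA on both strands, overlapping at 30 and 31 bases before the start, a pair of GC boxes and 1 CCAAT match on the opposite strand. The Ina window held a pair of GC boxes on the opposite strand, at 111 and 12 bases before the start. These letters were not found in the Uchl1 window. A match is a description of sequence and not a binding site. The other 6 genes were Nefl, Nefm, Nefh, Stmn2, Stmn4 and Gap43.

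The neurofilament triplet was high on 4 db/+ arrays, intermediate on db/+ 105 and low elsewhere. Nefl, the light subunit that nucleates the filament, read 13.81, 13.69, 13.48 and 13.59 on db/+ 101, 103, 104 and 106, and 12.03, 9.37 and 8.04 on db/+ 105, 404 and 407. The 6 db/db arrays had Nefl levels from 7.65 to 9.34, with a median of 8.62. Array 105 lay above every db/db array, 404 lay just above the highest of them and 407 lay within their range, so the genotypes overlapped. Mean Nefl was 12.00 ± 2.36 (SD, n = 7) in db/+ and 8.58 ± 0.64 (SD, n = 6) in db/db. The log2 difference was -3.42 ± 0.91 (SE; limma adjusted p = 0.0170), and without the 4 arrays it was -1.23 ± 0.74 (adjusted p = 0.318, 95% interval -2.89 to 0.44).

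Nefm, the medium subunit, whose tail takes part in filament spacing, read 12.65, 11.99, 11.73 and 11.94 on the 4 arrays and 9.85, 7.57 and 6.68 on db/+ 105, 404 and 407. Its db/db levels ran from 6.30 to 7.43 with a median of 6.63. The same order held as for Nefl: 105 was far above db/db, 404 just above it, and 407 within its range. The difference was -3.57 ± 0.91 (SE; limma adjusted p = 0.0132) over 13 arrays and -1.26 ± 0.59 (adjusted p = 0.199) over 9. Nefl and Nefm are neighbouring genes in RefSeq.

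Nefh, the heavy subunit with a long phosphorylated tail, had levels of 12.94, 12.58, 12.28 and 12.48 on the 4 arrays and of 9.64, 8.33 and 6.99 on db/+ 105, 404 and 407. In db/db it ran from 6.46 to 7.91 with a median of 7.57. Here both 105 and 404 lay above every db/db array, and 407 overlapped. Nefh fell by 3.39 ± 0.93 (SE; limma adjusted p = 0.0188) over 13 arrays, and differed by -0.96 ± 0.54 (adjusted p = 0.279) without the 4. In samples 404 to 411 alone (2 db/+ and 3 db/db arrays), the triplet differences were -0.20 for Nefl, -0.32 for Nefm and -0.36 for Nefh, with limma adjusted p of 0.851, 0.635 and 0.663. These intervals are wide, and a p that misses the threshold does not show equal levels.

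The remaining intermediate filament genes went separate ways. Prph, a filament protein of sensory, autonomic and motor neurons, read 12.76, 12.55, 12.12 and 12.45 on the 4 arrays and 8.53, 9.16 and 8.05 on db/+ 105, 404 and 407. Its db/db levels ran from 7.03 to 8.49, median 8.32. Array 404 was the highest of its 3, 105 lay just above db/db, and 407 lay within its range. Prph fell by 2.76 ± 0.82 (SE; limma adjusted p = 0.0274) over 13 arrays and differed by -0.54 ± 0.36 (adjusted p = 0.375) over 9. Its call ended when any 1 of db/+ 101, 103, 104 or 106, or db/db 110 or 411, was left out (adjusted p up to 0.0605).

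Ina was the exception to the pattern. Its levels were 6.62, 6.33, 5.63 and 6.08 on the 4 arrays and 4.44, 3.98 and 3.48 on db/+ 105, 404 and 407. All its levels lay below the array medians of 8.63 to 8.71. Its mean was not above the lower quartile of gene means, so a fit limited to genes above that quartile left Ina out. All 6 db/db arrays, from 4.72 to 5.49 with a median of 5.25, lay between these sets and overlapped with neither. Over 13 arrays the genotype difference was -0.02 ± 0.48 (SE; limma adjusted p = 0.982, 95% interval -1.05 to 1.01). Without the 4 arrays Ina was higher in db/db by 1.23 ± 0.23 (limma adjusted p = 0.00870, 95% interval 0.72 to 1.75), a 2.35-fold difference, and every db/db array exceeded every remaining db/+ array, as for 8.98% of all genes. In samples 404 to 411 alone it was higher by 1.60 ± 0.20 (limma adjusted p = 0.0192). Leaving out each of the 9 arrays in turn kept the call 9 of 9 times. The db/+ arrays in these fits were those with low neuronal transcripts, so the choice of arrays itself lowered the db/+ side.

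**Figure D2:**
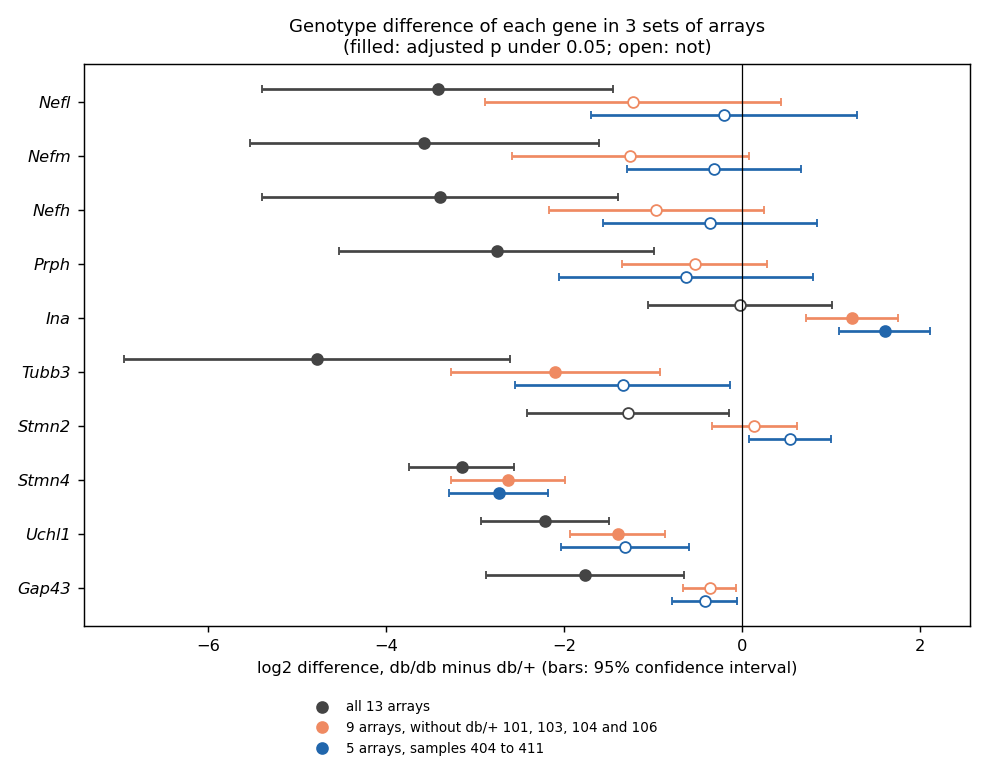
Log2 difference, db/db minus db/+, for each of the 10 genes with 95% intervals, from the limma fits over 13 arrays, over the 9 arrays without db/+ 101, 103, 104 and 106, and over the 5 arrays of samples 404 to 411 (filled where called). Stmn4 lies at -3.15, -2.63 and -2.73 in these fits, whereas Nefl moves from -3.42 to -1.23 and Ina from -0.02 to 1.23.

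Tubb3, the beta-tubulin of neurons, showed the greatest difference of the 10 genes over 13 arrays. It read 13.44, 13.25, 12.89 and 13.12 on the 4 arrays and 9.50, 7.75 and 8.21 on db/+ 105, 404 and 407. The db/db arrays ran from 5.33 to 7.55 with a median of 6.18, and the highest of them lay 0.20 below the lowest db/+ array. Tubb3 fell by 4.78 ± 1.0 (SE; limma adjusted p = 0.00478), and by 2.10 ± 0.52 without the 4 arrays (adjusted p = 0.0295). The latter call was kept in 4 of 9 further fits that each left out 1 more array (adjusted p 0.0190 to 0.0993), and in samples 404 to 411 alone the difference was -1.34 (limma adjusted p = 0.147).

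The stathmins differed from each other. Stmn4 read 9.11, 9.22, 9.37 and 9.77 on the 4 arrays, 7.84, 8.96 and 8.58 on db/+ 105, 404 and 407, and 5.24 to 6.36 with a median of 5.88 in db/db. The lowest db/+ array stood 1.49 above the highest db/db array, the widest separation among the 10 genes. Stmn4 fell by 3.15 ± 0.27 (SE; limma adjusted p = 1.17e-05), an 8.88-fold difference, and by 2.63 ± 0.28 without the 4 arrays (adjusted p = 0.000865). It also fell in samples 404 to 411 alone, by 2.73 ± 0.22 (limma adjusted p = 0.00929), the only gene of the 10 called lower there. All db/db arrays lay below all db/+ arrays for 3 of the 10 genes, Stmn4, Uchl1 and Tubb3, as for 3.51% of all genes. Against db/+ 105, 404 and 407 alone, the same 3 genes had every db/db array lower, as did 9.99% of all genes.

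Stmn2, a stathmin of growth cones and regenerating axons, read 13.05, 12.82, 12.32 and 12.48 on the 4 arrays, and 10.51, 10.14 and 9.90 on db/+ 105, 404 and 407. In db/db it ran from 9.85 to 10.71 with a median of 10.28. The 3 db/+ arrays fell within the db/db range. Its difference was -1.28 ± 0.53 over 13 arrays (SE; limma adjusted p = 0.0895, 95% interval -2.42 to -0.15) and 0.14 ± 0.21 without the 4 (adjusted p = 0.725, 95% interval -0.34 to 0.61).

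Uchl1, an abundant neuronal ubiquitin hydrolase also known as PGP9.5 and used to stain nerve fibres, read 13.67, 13.53, 13.15 and 13.31 on the 4 arrays and 11.83, 11.73 and 12.40 on db/+ 105, 404 and 407. Its db/db levels ran from 9.98 to 11.09 with a median of 10.65, all at least 0.64 below db/+. Uchl1 fell by 2.21 ± 0.33 (SE; limma adjusted p = 0.000546), a 4.64-fold difference, and by 1.40 ± 0.24, 2.64-fold, without the 4 arrays (adjusted p = 0.00576). Both calls were kept whichever single array was left out. In samples 404 to 411 alone the difference was -1.32 (limma adjusted p = 0.0525).

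Gap43, a growth cone phosphoprotein, read 10.52, 10.28, 9.37 and 9.93 on the 4 arrays and 7.67, 7.66 and 7.42 on db/+ 105, 404 and 407. In db/db it ran from 7.01 to 7.49 with a median of 7.19. Array 407 lay within the db/db range, and 105 and 404 lay just above it. Gap43 fell by 1.76 ± 0.52 (SE; limma adjusted p = 0.0256) over 13 arrays, a call that ended without db/+ 104, db/+ 106 or db/db 411 (adjusted p up to 0.0526). Over 9 arrays it differed by -0.37 ± 0.13 (adjusted p = 0.0994), and with the number series as a block by -0.40 (adjusted p = 0.0486).

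The sample numbers form a pair of series, 101 to 112 and 404 to 411, whose meaning the labels do not state, and the 4 high arrays all belong to the first. Within 101 to 112 alone (5 db/+ and 3 db/db arrays), 9 of the 10 genes were lower (limma; 8.67% of all genes), all but Ina. Within 404 to 411, 1 was lower and 1 higher, against 4.17% and 4.93% of all genes. With the series as a block over all 13 arrays, 8 of the 10 genes were again called lower (12.9% of all genes), with differences of -2.92 for Nefl, -4.37 for Tubb3, -3.17 for Stmn4 and -1.53 for Gap43. Without the 4 arrays, the block gave 4 lower, Gap43 added to Tubb3, Stmn4 and Uchl1, and 1 higher, against 10.4% and 8.95% of all genes. An exact rank-sum test over 13 arrays, adjusted over all genes, called 5 of the 10 lower (8.6% of all genes). The difference of the genotype effect between series was called by limma for 0 of the 10 genes and 0 of all genes. An unadjusted p under 0.05 was found for 8 of the 10 and for 2360 of all 15437 genes. It was called for 9 of the 10 without db/+ 105 (8.49% of all genes), for 1, Nefl, without db/+ 404 (0.466%) and for 6 with array weights (4.97%).

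Array db/+ 105 had high neurofilament triplet levels, while its sensory neuron marker mean was as low as on db/+ 404 and 407. Its Nefl level exceeded the highest of the other 8 arrays outside the 4 (db/+ 404 and 407 and all db/db) by 2.65, first of 15437 genes by this excess. Nefm was next at 2.28, and Nefh, at 1.31, and Tubb3, at 1.30, were 15th and 17th by the same rank. Its Uchl1, Prph, Ina and Stmn4 levels did not exceed the others, at -0.57, -0.62, -1.05 and -1.12 on the same measure, and Stmn2 was at -0.20. On this array 15.5% of all genes were above the other 8, and 40 genes were so by more than 1, 4 of them Nefl, Nefm, Nefh and Tubb3. Of the 17 sensory neuron markers, 5 were highest on 105 among these 9 arrays, the synaptic SNARE gene Snap25 among them (11.28 against at most 9.68), while the mean of all 17, Snap25 included, was 5.83, the lowest of its 3 db/+ arrays. Schwann cell markers were also high there, with 8 of 11 above the other 8 arrays and a mean of 11.26 against at most 11.0 on those arrays. Their part in the neurofilament levels of array 105 was not tested. This is a description of 1 array, chosen after its values were seen.

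**Figure D3:**
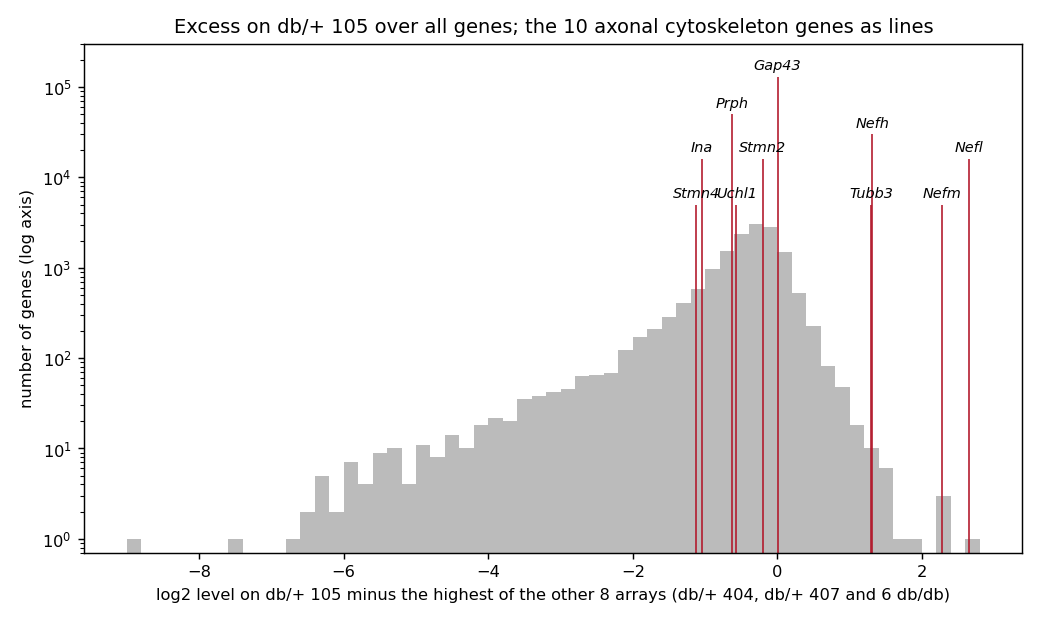
Histogram over all genes (log count axis) of the log2 level on db/+ 105 minus the highest of db/+ 404, db/+ 407 and the 6 db/db arrays, with the 10 genes as red lines. Nefl at 2.65 and Nefm at 2.28 lie at the far right, whereas Prph, Ina, Uchl1 and Stmn4 lie below 0.

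Among themselves the genes shared their highest and lowest db/+ arrays. Sample 101 had the highest db/+ level for 9 of the 10 genes and 106 for Stmn4, and sample 407 the lowest for 7. The gap between the lowest of the 4 high arrays and the highest of the other 9 ran from 0.14 for Ina and 0.15 for Stmn4 to 2.96 for Prph and 3.39 for Tubb3. All 10 genes had such a gap, compared with 8.45% of all genes, in a division that these genes helped to define. In db/db, sample 110 had the lowest level for 4 genes, 411 for 3 and 112 for 2. The db/db SDs ran from 0.19 for Gap43 to 0.83 for Tubb3, and the db/+ SDs from 0.62 for Stmn4 to 2.56 for Tubb3.

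Lists of related cytoskeletal genes had smaller median differences than the 10 genes over 13 arrays: -0.29 for tubulins, -0.80 for microtubule-associated proteins and -0.43 for transport motors. The sensory neuron cell body markers had a median of -3.09, beyond the -2.95 of the 10 genes, so a fall of this size was not particular to them. Without the 4 arrays these medians were -0.29 for the sensory neuron markers and -1.10 for the 10 genes. The background for the counts in each list is 11.7% of all genes called lower and 13.4% called higher over 13 arrays, and 6.78% and 6.12% without the 4. These shares are of calls by adjusted p and do not serve for counts by unadjusted p. Of 10 measured tubulins (of 16 listed), 2 fell (Tubb4a and Tubg2) and 1 rose (Tubg1, a gamma-tubulin, by 0.58), and without the 4 arrays Tubb4a alone was called, with Tubg2 at -0.74 and Tubg1 at 0.44 (adjusted p = 0.211 and 0.209). Tubb4a, a beta-tubulin of neurons and myelinating glia, fell by 2.87 (limma adjusted p = 0.000321) and by 1.84 without the 4 arrays (adjusted p = 0.00204). Among 24 microtubule-associated protein genes 12 fell and 1 rose (Spast, a microtubule-severing enzyme, by 0.31). Without the 4 arrays 2 fell (Tppp3 and Dpysl4) and 1 rose (Map7, by 1.74). Tppp3, a tubulin polymerization-promoting protein, fell by 1.16 (adjusted p = 0.000341) and by 0.96 without the 4 arrays (adjusted p = 0.0118), and Dpysl4, a collapsin response mediator, by 0.67 and 0.49.

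Of 22 axonal transport motor genes, 8 fell and 2 rose over 13 arrays. Without the 4 arrays 0 of the 22 passed, while 6 were lower and 4 higher by unadjusted p under 0.05 in limma. The share of all genes at that unadjusted p was not counted without the 4 arrays, so these 2 counts have no background. Kif3c, a kinesin, fell by 1.24 over 13 arrays (limma adjusted p = 0.00337), and was -0.70 over 9 (adjusted p = 0.0502). The kinesins Kif21b and Kif3b rose by 0.49 and 0.32 (adjusted p = 0.00473 for Kif21b). The list of other intermediate filaments had 2 of 9 genes called, both lower, with Nes (nestin, a filament of immature and some glial cells) at -0.92 and Sync (syncoilin) at -0.38. Neither was called without the 4 arrays (adjusted p = 0.125 and 0.197), where Bfsp1 (-0.88) was. Of 12 linkers and spectrins, 4 fell (Ank2, Ank3, Add1 and Add3) and 1 rose (Macf1, by 0.34), whereas without the 4 arrays 1 fell (Add3) and 2 rose (Dst by 1.11 and Macf1 by 0.36). Ank2, an ankyrin that links the axonal membrane to spectrin, fell by 1.34 (adjusted p = 0.00500) and was -0.61 without the 4 arrays (adjusted p = 0.0566). Add3, an adducin that caps actin, fell by 0.58 (adjusted p = 0.00127), and by 0.75 without them (adjusted p = 0.00192).

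Of 14 measured growth cone and injury genes, 3 fell (Jun, Klf7 and Dbn1) and 2 rose (Atf3, an injury-induced transcription factor, by 0.88, and Plppr4) over 13 arrays. Without the 4 arrays Jun, Dbn1 and Plppr4 were called, and Klf7 (-0.53) and Atf3 (0.83) were not (adjusted p = 0.107 and 0.0656). Plppr4, a phospholipid phosphatase-related membrane protein of neurons, read 5.49 to 6.95 on the 4 high db/+ arrays, 4.31 to 5.82 on the other 3 and 8.66 to 9.74 in db/db. It rose by 3.31 (limma adjusted p = 0.000124) and by 4.09 without the 4 arrays (adjusted p = 0.000289), with no overlap. Dbn1, an actin-binding drebrin, fell by 0.95 (adjusted p = 0.00298). Of 10 axon maintenance and ubiquitin genes, 4 fell (Sarm1, Nmnat2, Trim2 and Fbxo2) and 2 rose (Mycbp2 and Nmnat1), and of these Fbxo2 alone lost its call without the 4 arrays (-2.39 and -0.49, adjusted p = 0.265 in the latter). Sarm1, an executioner of axon degeneration, fell by 0.82 (adjusted p = 0.00262), and Mycbp2, a ubiquitin ligase that promotes axon degeneration, rose by 0.80 (adjusted p = 0.000474). Nmnat2, which makes NAD in axons, fell by 2.10 (adjusted p = 0.00271) and by 1.03 without the 4 arrays (adjusted p = 0.00626).

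Markers of other cells moved with genotype in some lists. Of 11 Schwann cell markers, 8 fell over 13 arrays, S100b by 1.07 and Cldn19 by 1.43 (limma adjusted p = 0.00358 and 0.00451). Without the 4 arrays 0 of 11 passed, and 3 were lower by unadjusted p under 0.05 in limma. For unadjusted counts without the 4 arrays, here and in the macrophage list, the share of all genes was not counted. Of 17 sensory neuron markers 12 fell over 13 arrays and 3 (Rbfox3, Elavl4 and Isl1) without the 4. Of 8 adipocyte markers 4 rose (Lep by 1.75, Aqp7 by 1.62, Cidec by 0.71 and Pparg by 0.73), all but Cidec (0.34, adjusted p = 0.0628) also without the 4 arrays. Of 8 macrophage markers 2 rose over 13 arrays (Cd68 by 1.38 and Adgre1 by 0.86). Without the 4 arrays these were 0.90 and 0.46 (limma adjusted p = 0.169 and 0.288), and 0 of 8 passed, with 1 higher by unadjusted p under 0.05. The mean of the satellite glia markers was 11.21 to 11.60 on the 4 db/+ arrays, 9.62 to 9.92 on the other 3 and 9.46 to 10.19 in db/db. For 2 of the 5, Fabp7 and Kcnj10, the 4 arrays lay above all others, as for 8.45% of all genes. Fabp7 was not called over 13 arrays (-1.115, limma adjusted p = 0.483) or without the 4 (1.78, adjusted p = 0.0908). Of 5 satellite glia markers 2 fell over 13 arrays (Kcnj10 by 2.60 and Slc1a3 by 0.90), and without the 4 arrays Slc1a3 fell by 0.93 and Kcnj10 was -0.64 (adjusted p = 0.0759). Dcn of fibroblasts (-0.20) and Tek and Cdh5 of endothelium (-0.61 and 0.29) also passed over 13 arrays. Of these Tek passed without the 4 arrays (-0.78), as did Pdgfra of fibroblasts (-0.49). Lum of fibroblasts was -0.42 over 13 arrays and was not called (limma adjusted p = 0.0738). Skeletal muscle markers varied widely from array to array, with means of 7.13 to 12.18 on the 4 db/+ arrays, 8.29 to 10.96 on the other 3 and 6.65 to 11.48 in db/db, and 0 of 12 passed (1 lower by unadjusted p under 0.05). Pvalb and Myh2 had the smallest p of that list, at -2.06 and -1.82 over 13 arrays (limma adjusted p = 0.0648 and 0.342). The part of these cell types in the 10 genes' differences was not tested. As a sign of RNA integrity, the actin control probe set at the 3′ end exceeded that at the 5′ end by 0.96 to 1.40 on the 4 arrays, 0.40 to 1.14 on the other 3 and 0.49 to 0.92 in db/db. The same measure for the Gapdh control was 0.724 to 0.99, 0.55 to 1.338 and 0.505 to 0.868 in that order, and these ranges overlapped.

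**Figure D4:**
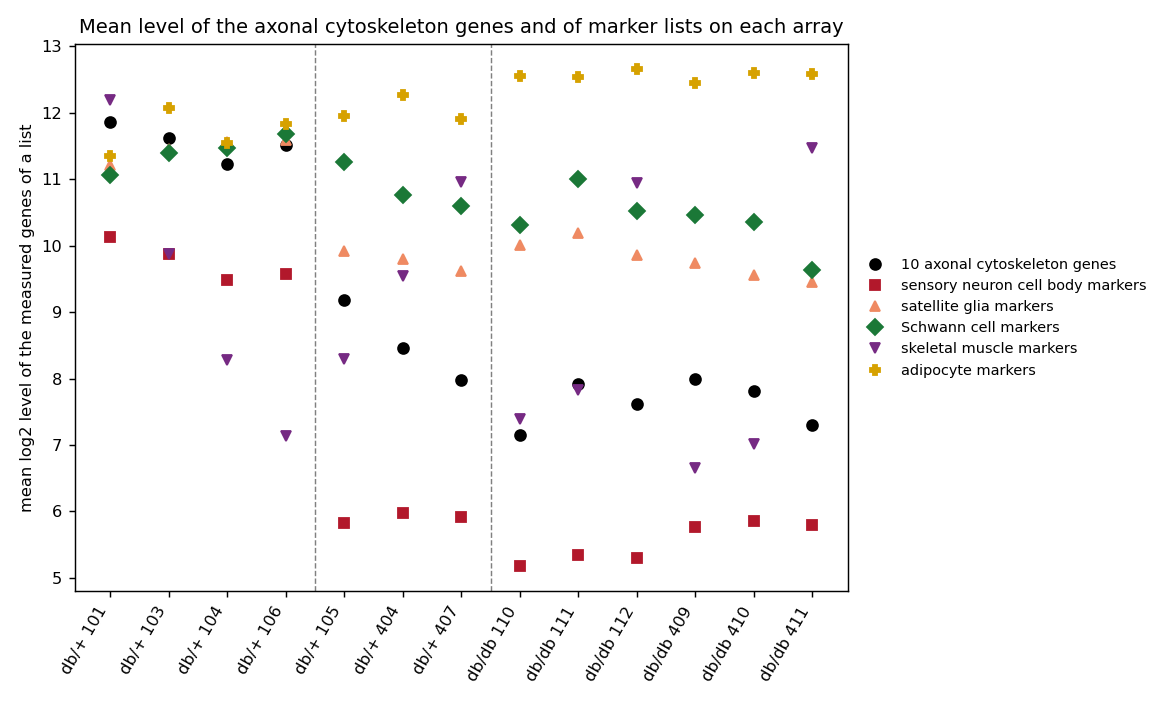
Mean log2 level on each of the 13 arrays of the 10 axonal cytoskeleton genes and of 5 marker lists, 1 symbol per list, with dashed lines between the 3 sets of arrays. Both the 10 genes and the sensory neuron markers are high on db/+ 101, 103, 104 and 106 (means of 11.23 to 11.86 and of 9.48 to 10.13), whereas the Schwann cell means of db/+ 105, 404 and 407 (10.60 to 11.26) overlap those of both other sets.

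The genes whose profiles were most like the mean profile of the 10 were sought by the root mean square difference over 13 arrays, after each gene's own mean was subtracted. The nearest 6 were Ckmt1 (0.21), Map1b (0.23), Rtn1 (0.25), Bend6 (0.31), Syt11 (0.34) and Rab39b (0.34). The 10 genes themselves lay between 0.48 for Prph and 1.36 for Ina. Map1b, a microtubule-associated protein of growing axons, read 9.23 to 10.11 on the 4 arrays, 6.01 to 7.01 on the other 3 and 5.49 to 6.27 in db/db.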

How the data were processed

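The authors deposited log2 expression values computed with RMA, per the submitters' processing notes, which give no version; scanner files and probe sequences were not used here, and the probe build is not given in the sources used here. Of 15479 probe sets, 42 controls were left out and 15437 tested, of which 14801 carried 1 gene symbol and 636 none. RMA evens out array distributions, so differences are relative to each array's whole. Genotypes were compared with limma 3.58.1 in R 4.3.3 (lmFit and eBayes, two-sided, Benjamini-Hochberg over all genes tested, threshold 0.05). On simulated data for 7 and 6 arrays, 76% of log2 changes of 1 and 100% of changes of 2 were recovered, with 9 false calls. The simulated noise was independent between arrays, its largest SDs were capped and db/+ held no division. These rates therefore do not apply to genes that are split within db/+, the 10 genes included. The 10 genes, the gene lists and the division of the db/+ arrays were chosen with earlier results of these data known. Named are all 10 genes, the 2 genes with the smallest p of each list and the 6 genes most like the mean profile; Snap25, further genes that complete a count and the excesses on db/+ 105 were named after their values were seen. No pair of arrays was identical. The number of arrays limits the precision.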

Additional observations from a re-analysis of the deposited data

Results flagged for a closer look

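The Stmn2 difference had opposite signs in the number series, and the genotypes did not overlap within either series. The second series held 2 db/+ and 3 db/db arrays. The share of all genes separated in this way was not counted, so the lack of overlap has no background. In samples 101 to 112 every db/db array (9.85 to 10.30) lay below every db/+ array (10.51 to 13.05), and in samples 404 to 411 every db/db array (10.27 to 10.71) lay above both db/+ arrays (10.14 and 9.90). The genotype difference was -2.16 in the first series (limma adjusted p = 0.0307) and 0.54 in the second (adjusted p = 0.136). The difference between these effects was 2.69, with a limma adjusted p of 0.242, so the test of the difference itself did not pass. The 4 db/+ arrays with high neuronal transcripts all belong to the first series. Dixon's test of the single highest and lowest array in each genotype, for each of the 10 genes (20 groups of values), passed its 95% critical value in none. That test looks for 1 array apart from all others of its genotype, and does not address the 4 db/+ arrays that were high together or array 105, which lay between them and the remaining db/+ arrays for Nefl, Nefm and Nefh.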

How the results depend on the processing

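Over 13 arrays, Stmn4, Uchl1, Tubb3, Nefl, Nefm and Nefh were called lower whichever single array was left out. Of 356 gene values under the alternatives for the 10 genes, 235 kept direction and side of the threshold, 85 lost the call, 4 gained one and 32 changed sign; of 1309 for the other named genes, 1015 kept both, 283 lost the call, 11 gained one and 0 changed sign.

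The sign changes were all of Ina and Stmn2. Ina was 0.049 after renewed quantile normalization, 0.029 after median centring, 0.17 with the series as a block, 1.60 in samples 404 to 411, 1.23 without the 4 db/+ arrays (with or without the block), -0.31 to 0.21 when 1 of 13 arrays was left out, and 1.47, 1.24, 0.99, 1.26, 1.19, 1.33, 1.25, 1.18 and 1.20 when 1 of the 9 was. Stmn2 was 0.54 in samples 404 to 411, 0.14 without the 4 arrays, 0.17 with the block there, and 0.30, 0.11, 0.18, 0.23, 0.14, 0.058, 0.061 and 0.15 in leave-outs from the 9.

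Of all genes, 3867 were called in either direction over 13 arrays, and 2893 to 4529 when any single array was left out. The count was 3119 by the exact rank-sum test, 2403 among genes above the median level and 6525 with array weights. It was 1404 in samples 404 to 411 and 100 with limma's treat at a difference of 1. Without the 4 arrays it was 1992, and 2987 with the block. The settings added after seeing the data, the 4 arrays and 1 other left out, called 1540, 1166, 1164, 1749, 1680, 1722, 1516, 1537 and 1501. Genes of the 10 called lower numbered 8 over 13 arrays, 6 to 9 in leave-outs, 5 by the exact rank-sum test, 4 without the 4 arrays with the block, 3 without it, 1 in samples 404 to 411, 1 with treat, and 2, 3, 2, 3, 3, 2, 3, 2 and 2 in the added settings. Genes called higher numbered 1 in samples 404 to 411, without the 4 arrays and in the added settings. The genotype by series difference was called for 6 with array weights and for 0 to 9 in leave-outs. The cause of these changes was not tested.

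No paired analysis was possible because the samples of the genotypes share no numbers. The 3 db/+ arrays left without the others limit the precision there.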

Other observations

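Slc5a7, the choline transporter of cholinergic neurons, read 3.88 to 4.23 on the 4 high db/+ arrays, 3.94 to 4.19 on the other 3 and 7.49 to 8.22 in db/db. It rose by 3.72 over 13 arrays (limma adjusted p = 9.07e-10) and by 3.77 without the 4 (adjusted p = 4.92e-06), and the 2 sets of db/+ arrays overlapped. Of the other measured genes on the list of motor neuron markers, Slc18a3 and Lhx3 were not called over 13 arrays. Their differences were -0.09 and 0.09 (limma adjusted p = 0.651 and 0.499). Isl1 fell by 3.94 (limma adjusted p = 0.00802). Chat and Mnx1, also on that list, were not matched.

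Over the 9 arrays without db/+ 101, 103, 104 and 106, a search added after seeing the data, the genes nearest to the mean profile of the 10 were Itgae (0.17), Vsnl1 (0.18), Ckmt1 (0.21), Clic6 (0.21), Vit (0.21) and Rasgef1a (0.23). Only Ckmt1 was also among the nearest 6 over 13 arrays.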
